A study of Homo sapiens with 18 samples.

Results

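The genes described here are 10 members of the ETS family of transcription factors: ETV4, ETV5, ETV6, ETS1, ETS2, ERF, ELK1, ELK3, ELK4 and GABPA. They were taken by name from a table of 23621 genes, with earlier results of these data known, and ETV1, the remaining member of the group that holds ETV4 and ETV5, is given only for comparison. All 10 had a row in the table and all 10 passed the filter on low values. RNA was measured in 18 libraries of GIST-T1, a single human cell line from a gastrointestinal stromal tumor (GIST), a tumor type driven in most cases by the receptor tyrosine kinase KIT. Groups of 3 libraries each came from cells given DMSO (the solvent, for which the labels state no time), imatinib for 6 h, imatinib for 24 h, JQ1 for 6 h, JQ1 for 24 h, or imatinib together with JQ1 for 24 h (the combination). Every drug was used at 500 nM. Imatinib blocks the kinase activity of KIT, and JQ1 displaces BET bromodomain proteins from acetylated chromatin. The study's title concerns enhancers that regulate KIT and their sensitivity to BET inhibition, so the comparisons ask how a block of the kinase and a block of enhancer readers each moved the ETS genes.

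ETS factors share a winged helix-turn-helix domain that binds DNA around the core GGAA. They differ in their wiring to signalling. ETV1, ETV4 and ETV5 form the PEA3 group, whose transcription and protein stability can depend on ERK. ERK is the kinase at the end of the RAS and MAP kinase cascade. By contrast, ELK1, ELK3 and ELK4 sit with serum response factor (SRF) on immediate early genes and are phosphorylated by ERK. ETS1 and ETS2 are activators that ERK phosphorylates, ERF and ETV6 are repressors, and ERK phosphorylation moves ERF out of the nucleus. GABPA is the DNA-binding subunit of a factor found at many promoters of housekeeping genes, and ETV1 is a lineage survival factor of GIST whose protein is stabilised by KIT signalling.

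The preferred site of several of these factors also lies in the promoters of 2 of the genes themselves, and the windows are printed to show what such a site looks like in its setting. The windows are the 250 bases before an annotated transcription start in the RefSeq table (GRCh38.p14), which held 11 windows for 7 of the 10 genes. ETV4, ETV5 and ETS1 were not matched. The motif searched was CCGGAAGT on either strand (ACTTCCGG when read from the other strand), and it is in capitals below. It was present in 2 of the 11 windows, in ELK4 and in GABPA, and in 3.42% of all 35116 windows of that length. The motifs TGAATGAA and TGAATGGA, to which the repressor CIC binds, do not overlap with it and were in 0 of the 11 windows on either strand, against 1.4% and 0.832% of all windows. A match describes letters only.
ELK4 promoter, chr1:205632012-205632261, minus strand: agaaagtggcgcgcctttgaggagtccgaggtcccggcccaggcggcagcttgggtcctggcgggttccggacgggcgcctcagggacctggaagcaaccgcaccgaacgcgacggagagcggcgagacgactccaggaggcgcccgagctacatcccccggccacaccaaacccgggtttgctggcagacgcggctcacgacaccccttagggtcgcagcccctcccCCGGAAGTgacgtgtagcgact
GABPA promoter, chr21:25734722-25734971, plus strand: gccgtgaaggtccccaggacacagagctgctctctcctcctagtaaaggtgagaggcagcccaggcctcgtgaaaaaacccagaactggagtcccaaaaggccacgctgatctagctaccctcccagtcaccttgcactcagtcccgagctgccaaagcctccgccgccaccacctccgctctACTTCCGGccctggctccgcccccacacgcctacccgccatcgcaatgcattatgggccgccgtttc
In ELK4 the first base of the motif lay 22 bases before the start, and in GABPA it lay 67 bases before it.

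Values are FPKM (fragments scaled to transcript length and library size), a unit that corrects for transcript length and so allows levels of different genes to be set side by side. ERCC spike-in RNA was added in relation to cell count, and the median ratio of the spike-ins to their mean lay between 0.986 and 1.03 in every library, so the deposited values were taken to be on a spike-in scale, although the step that made them is not given. Total FPKM was 1.72-fold to 5.80-fold below DMSO in the treated groups. The median change of all 12771 tested genes was therefore below 0: -0.69 on the log2 scale for imatinib 6 h, -1.0 for JQ1 6 h, -1.5 for imatinib 24 h, -1.49 for JQ1 24 h and -2.05 for the combination. Changes are accordingly given on the deposited scale and, for many but not all, also after division of each library by its median ratio to the average library. This second form (below, rescaled) sets a gene against the typical gene. A fall given on the deposited scale alone may be no call when rescaled. Changes are differences of log2(FPKM + 1) from limma. Folds of a gene are ratios of group mean FPKM without the added 1, so at low levels they are larger than the log2 change beside them gives. A gene is said to have risen or fallen only where the adjusted p was below 0.05 and the log2 change was at least 1 in size. Errors on log2 changes are SE and errors on levels are SD, with n = 3 libraries in every group. The depth in reads is unknown, the labels do not state whether libraries were separate cultures, and in bulk RNA fewer cells expressing a gene and less RNA per cell cannot be told apart. Libraries of a group differed in overall level: replicate 3 was the highest for 10, 10, 9 and 10 of the 10 genes in DMSO, imatinib 6 h, JQ1 6 h and JQ1 24 h. Replicate 1 of DMSO was the lowest for all 10, and in the combination replicate 2 was the highest for all 10. All 7 GIST markers were present, while 4 of 5 leukocyte, 3 of 4 endothelial and 3 of 4 neural and glial markers lay below 1 FPKM in every library. The epithelial list had 2 of 5 markers below 1 FPKM. Its sum, carried by the keratin KRT18, lay between 416 and 663 FPKM in DMSO and between 16.5 and 29.4 FPKM in the combination. The part of this keratin in the results was not tested. The GIST marker sum lay between 4635 and 7093 FPKM and between 237 and 421 FPKM in the same groups. Most of it was the marker CD34, at 3253 to 5009 FPKM and 124 to 222 FPKM, so the sum mainly follows that gene.

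In untreated cells ETV5 was the most abundant of the 10 transcripts and ETV6 the least. Mean levels in DMSO were 246 ± 47.6 FPKM for ETV5, 162 ± 34.8 for ETS1 and 159 ± 29.0 for GABPA, and the ranges of each neighbouring pair overlapped. A gap followed, since every library of these 3 genes lay above every library of ETV4 (75.8 ± 16.8 FPKM). From ETV4 through ELK1, ELK4, ETS2 and ERF to ELK3 (41.5 ± 9.74 FPKM) each gene overlapped with the next. Only ETV6 (9.71 ± 1.71 FPKM) stood apart below. These overlaps compare different libraries, which differed in overall level. Within every DMSO library ETV5 lay above ETS1 and GABPA, and ELK1, ELK4, ETS2, ERF and ELK3 kept this order. ETS1 with GABPA and ETV4 with ELK1 changed places between libraries. The order changed under drug. GABPA was first in both imatinib groups, in JQ1 24 h and in the combination, ETV5 remained first only in JQ1 6 h, and at 24 h of imatinib ETV5 and ETV4 took the last places.

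**Figure D1:**
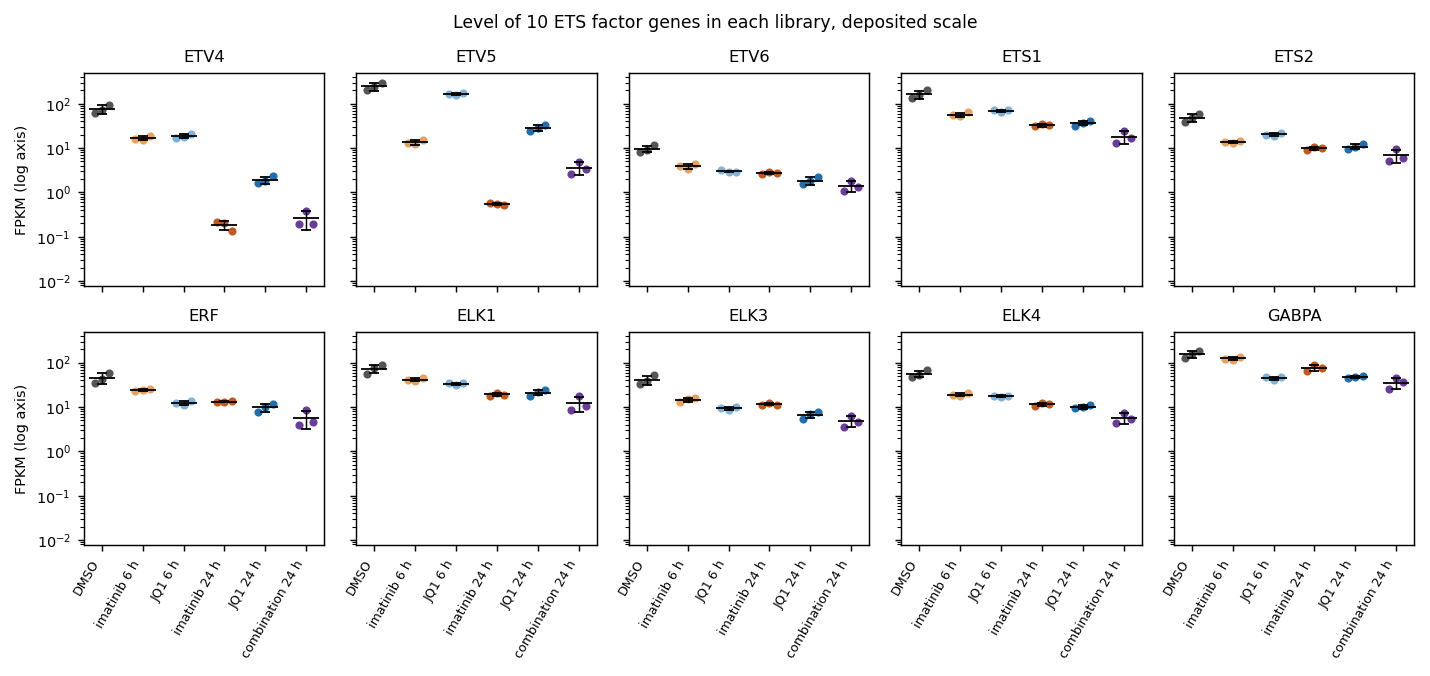
FPKM of each of the 10 ETS genes in every library (points, log axis) with the mean and SD (bars) of each treatment group, 3 libraries a group. ETV5 runs from 295 FPKM in the highest DMSO library to 0.516 in the lowest imatinib 24 h library, while GABPA stays between 25.2 and 187 FPKM.

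ETV5, a PEA3 activator, was the gene that separated the drugs most. It read 199.9, 243 and 295 FPKM in the 3 DMSO libraries. With imatinib it read 12.8, 12.4 and 15.3 FPKM at 6 h, and 0.575, 0.556 and 0.516 FPKM at 24 h. These 6 imatinib libraries all lay far below DMSO, and the 24 h libraries far below those at 6 h. The 24 h values lie below 1 FPKM, so folds and ratios that use them rest on low values. With JQ1 it read 168, 156 and 179 FPKM at 6 h, only a little under the lowest DMSO library, and 24.5, 28.3 and 33.9 FPKM at 24 h. The combination gave 2.67, 4.93 and 3.32 FPKM, above imatinib alone and below JQ1 alone without overlap with either. The log2 change was -4.08 ± 0.18 for imatinib 6 h (18.2-fold lower, adjusted p = 8.95e-14), -7.30 ± 0.18 for imatinib 24 h (448-fold lower) and -3.04 ± 0.18 for JQ1 24 h (8.51-fold lower). For JQ1 6 h it was -0.53 ± 0.18 (adjusted p = 0.00864), which does not reach the size required of a call, and rescaled it was 0.61, on the other side of 0. Set against the typical gene, ETV5 was thus higher after 6 h of JQ1, without a call, and lower with calls in the other 4 treated groups.

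ETV4, the other PEA3 activator among the 10, behaved differently from ETV5 at 6 h. It read 61.2, 72.1 and 94.2 FPKM in DMSO, 16.2, 15.3 and 18.7 FPKM with imatinib 6 h, and 17.2, 17.9 and 21.1 FPKM with JQ1 6 h. The drug groups overlapped with each other and lay well below DMSO. At 24 h it read 0.215, 0.206 and 0.138 FPKM with imatinib, 1.62, 1.82 and 2.32 FPKM with JQ1, and 0.195, 0.391 and 0.192 FPKM with both. The imatinib and combination values lie close to the floor of the table, where the 10th percentile of all values in a library lay between 0.0895 and 0.111 FPKM, so the ratio to DMSO there is poorly determined. ETV4 fell by 2.10 ± 0.16 on the log2 scale with imatinib 6 h (4.54-fold lower, adjusted p = 3.74e-10) and by 1.94 ± 0.16 with JQ1 6 h (4.05-fold lower, adjusted p = 4.4e-10). JQ1 and imatinib at 6 h differed by 0.16 ± 0.16 for this gene (95% interval -0.17 to 0.48). At 24 h ETV4 fell by 5.99 with imatinib, by 4.70 with JQ1 and by 5.91 with the combination. Rescaled, the JQ1 6 h change was -0.81 and no longer a call, and the other 4 remained calls.

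ETV1, the PEA3 member kept for comparison, was not called with imatinib at either time and fell with JQ1 6 h, as ETV4 did. It read 82.5, 99.6 and 119.7 FPKM in DMSO and 60.7, 71.0 and 64.1 FPKM after 24 h of imatinib, a change of -0.60 ± 0.18 that is no call and that became 1.11 and a rise when rescaled. JQ1 lowered it to 29.4, 25.6 and 29.0 FPKM at 6 h (-1.80 ± 0.18, rescaled -0.66 and no call). The ratio of ETV5 to ETV1 within a library does not depend on the scale of the library. It was 2.44 ± 0.0213 in DMSO and 0.189 ± 0.00798 with imatinib 6 h. With imatinib 24 h, where ETV5 lay below 1 FPKM, it was 0.00845 ± 0.000892. It was 6.00 ± 0.234 with JQ1 6 h, 1.04 ± 0.0414 with JQ1 24 h and 0.212 ± 0.0187 with the combination. The ratio of ETV5 to ETV4 was 3.26 ± 0.119 in DMSO, 0.807 ± 0.0142 with imatinib 6 h and 9.0 ± 0.695 with JQ1 6 h. It therefore moved in opposite directions under the 2 drugs at 6 h, with 3 libraries that do not overlap in each group. At 24 h it was 3.04 ± 0.606 with imatinib, where ETV4 is near the floor, 15.1 ± 0.461 with JQ1 and 14.5 ± 2.42 with both.

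**Figure D2:**
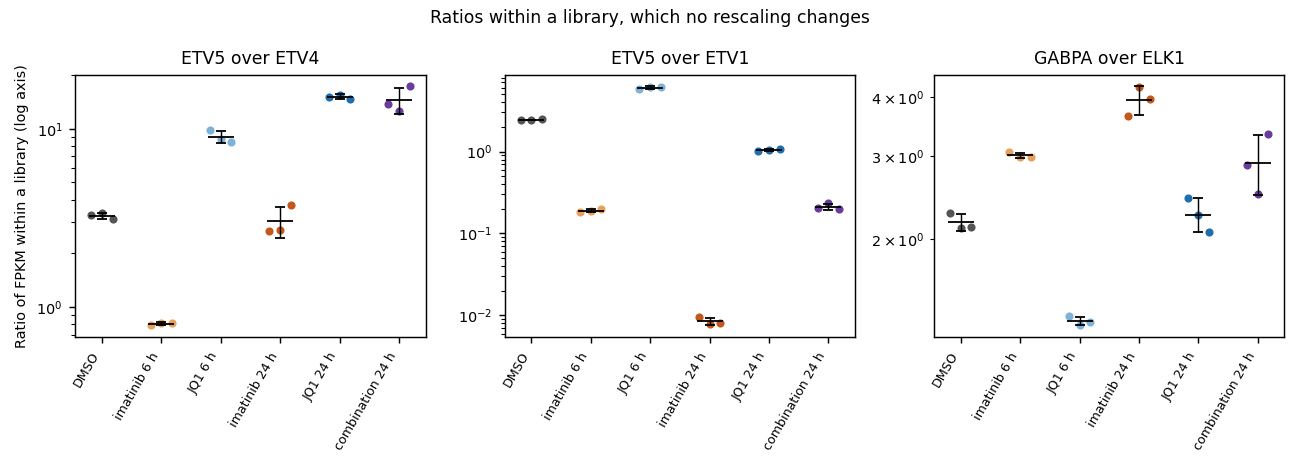
Ratios of FPKM within each library (points, log axes) with the mean and SD (bars) of each group of 3, for ETV5 over ETV4, ETV5 over ETV1 and GABPA over ELK1. ETV5 over ETV4 is 3.26 in DMSO, 0.807 with imatinib 6 h and 9.0 with JQ1 6 h, and GABPA over ELK1 is highest, 3.94, with imatinib 24 h.

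The repressors ERF and ETV6 were lower in every drug group. ERF read 34.1, 43.9 and 59.3 FPKM in DMSO, 23.4, 24.1 and 26.1 FPKM with imatinib 6 h and 12.6, 11 and 13.4 FPKM with JQ1 6 h. All 6 treated libraries lay below DMSO, but with imatinib the change of -0.84 ± 0.21 was too small for a call. Leaving out replicate 1 of DMSO, the lowest, made it -1.03 and a fall. With JQ1 6 h ERF fell by 1.78 ± 0.21 (adjusted p = 1.46e-07). At 24 h it read 13.0, 13.1 and 13.4 FPKM with imatinib, 7.67, 10.1 and 11.9 FPKM with JQ1 and 3.87, 8.35 and 4.48 FPKM with both, falls of 1.69, 2.09 and 2.86. ETV6 ran from 8.27 to 11.6 FPKM in DMSO, from 3.46 to 4.36 FPKM with imatinib 6 h and from 2.94 to 3.13 FPKM with JQ1 6 h. At 24 h it ran from 2.59 to 2.86 FPKM with imatinib, from 1.54 to 2.23 FPKM with JQ1 and from 1.07 to 1.84 FPKM with both, and no treated library reached DMSO. It fell in all 5 comparisons with DMSO, by 1.12, 1.41, 1.52, 1.90 and 2.15 in the order imatinib 6 h, JQ1 6 h, imatinib 24 h, JQ1 24 h and combination. Rescaled, neither repressor was called in any of the 5, with changes from -0.66 to -0.02 for ERF and from -0.51 to -0.07 for ETV6.

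ETS1 and ETS2, the activators that ERK phosphorylates, fell in all 5 comparisons with DMSO. ETS1 read 132, 155 and 200.3 FPKM in DMSO, 55.7, 51.9 and 63.7 FPKM with imatinib 6 h and 70.9, 65.0 and 73.0 FPKM with JQ1 6 h. Neither drug overlapped with DMSO. At 24 h it read 30.8, 34.8 and 32.4 FPKM with imatinib, 32.1, 37.1 and 39.9 FPKM with JQ1 and 12.8, 24.7 and 16.9 FPKM with both, and the single drugs overlapped with each other. ETS1 fell by 1.48 ± 0.19 with imatinib 6 h (adjusted p = 1.57e-06), by 2.26 ± 0.19 with imatinib 24 h and by 3.12 ± 0.19 with the combination. Rescaled, ETS1 was no call in any of the 5. ETS2 ran from 39.8 to 59.9 FPKM in DMSO, from 13.1 to 14.3 FPKM with imatinib 6 h, and from 18.9 to 22.0 FPKM with JQ1 6 h, with no overlap between any of these groups. At 24 h it ran from 9.18 to 10.4 FPKM with imatinib, from 9.56 to 12.5 FPKM with JQ1 and from 5.13 to 9.37 FPKM with both. It fell by 1.74 ± 0.18 with imatinib 6 h (adjusted p = 6.38e-08), where its rescaled change of -0.96 came closest to a call outside the PEA3 genes, and by 1.21 ± 0.18 with JQ1 6 h, where the rescaled change was -0.10. JQ1 against imatinib at 6 h differed by 0.53 ± 0.18 for ETS2 (adjusted p = 0.0198, no call).

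The ternary complex factors ELK1, ELK3 and ELK4, which bind DNA together with SRF, fell in all comparisons with DMSO except ELK1 with imatinib 6 h. ELK1 read 56.8, 75.7 and 88.4 FPKM in DMSO, 40.1, 39.3 and 44.7 FPKM with imatinib 6 h and 34.1, 30.9 and 35.2 FPKM with JQ1 6 h. Its change with imatinib 6 h was -0.80 ± 0.20, no call, although the ranges did not overlap. With JQ1 6 h it fell by 1.10 ± 0.20 (adjusted p = 2.89e-05), a call that was lost at -0.95 without replicate 3 of DMSO, and whose rescaled value was 0.03. ELK3, which represses until ERK phosphorylates it, ran from 33.5 to 52.4 FPKM in DMSO, from 13.0 to 16.3 FPKM with imatinib 6 h and from 8.75 to 9.96 FPKM with JQ1 6 h. It fell by 1.42 ± 0.18 and 2.01 ± 0.18 (adjusted p = 2.23e-09 for JQ1). ELK4, the third of these factors, ran from 48.4 to 67 FPKM in DMSO, from 17.8 to 20.6 FPKM with imatinib 6 h and from 16.6 to 18.2 FPKM with JQ1 6 h, and fell by 1.51 ± 0.17 and 1.63 ± 0.17. At 24 h the combination was the lowest group for each of them: ELK1 ran from 18.1 to 20.9 FPKM with imatinib, from 18.2 to 23.8 FPKM with JQ1 and from 8.77 to 17.6 FPKM with both. ELK3 ran from 11.2 to 12.5, from 5.49 to 7.71 and from 3.61 to 6.25 FPKM in the same order, the JQ1 and combination libraries overlapping. ELK4 ran from 10.6 to 12.6, from 9.45 to 11.4 and from 4.31 to 7.42 FPKM, the single drugs overlapping. All 3 fell in every 24 h group, by 1.73 to 2.18 with imatinib, by 1.74 to 2.44 with JQ1 and by 2.51 to 3.12 with both. None of the 3 was called after rescaling in any comparison with DMSO, where they ran from -0.90 to 0.03.

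On the deposited scale GABPA had the smallest change of the 10 genes with imatinib at both times. Rescaled, its change with imatinib turned positive at both. It read 129, 160.0 and 187 FPKM in DMSO and 122, 117 and 134 FPKM with imatinib 6 h, and these ranges overlapped (-0.34 ± 0.19, 95% interval -0.72 to 0.05). JQ1 6 h gave 46.9, 40.6 and 47.1 FPKM, far below both. At 24 h GABPA read 66.3, 87.6 and 74.0 FPKM with imatinib, 44.3, 48.1 and 49.2 FPKM with JQ1 and 25.2, 44.0 and 36.0 FPKM with both. It fell by 1.79 ± 0.19 with JQ1 6 h (adjusted p = 1.82e-08), by 1.71 ± 0.19 with JQ1 24 h and by 2.17 ± 0.19 with the combination. Rescaled, these were no calls, and the change with the combination turned positive. The fall of 1.05 ± 0.19 with imatinib 24 h (adjusted p = 1.49e-05) was lost without replicate 3 of DMSO (-0.92) or without replicate 1 of imatinib 24 h (-0.96). Rescaled it was 0.68 and no call, and with libraries set to equal totals instead it was 1.12 and a rise. The ratio of GABPA to ELK1 within a library was 2.17 ± 0.0931 in DMSO, 3.01 ± 0.0414 and 3.94 ± 0.271 with imatinib at 6 h and 24 h, and 1.34 ± 0.0288 and 2.25 ± 0.186 with JQ1.

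Counted together, 7 of the 10 genes fell with imatinib 6 h, where 20% of all tested genes did, and 9 of 10 fell with JQ1 6 h, where 49.8% did. All 10 fell with imatinib 24 h, JQ1 24 h and the combination, where 72.1%, 75.3% and 86% of tested genes fell. None of the 10 rose in any of these, where 0.384%, 0.642%, 0.642%, 0.399% and 0.235% of tested genes rose in the same order as the medians above. The 3 that did not fall with imatinib 6 h were ERF, ELK1 and GABPA, and the gene that did not fall with JQ1 6 h was ETV5. The median change of the 10 was -1.45, -1.52, -2.02, -2.10 and -2.86, beside -0.69, -1.0, -1.5, -1.49 and -2.05 for all tested genes. After rescaling, ETV4 and ETV5 were the members that fell with imatinib 6 h, imatinib 24 h, JQ1 24 h and the combination, where 2.08%, 8.72%, 6.47% and 10.1% of tested genes fell, and 0 of 10 fell with JQ1 6 h, where 2.57% did. None of the 10 rose after this rescaling by the median ratio, where 1.22%, 2.47%, 8.8%, 5.25% and 9.17% of tested genes did in the order of the medians. The 5 comparisons share the same 3 DMSO libraries.

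**Figure D3:**
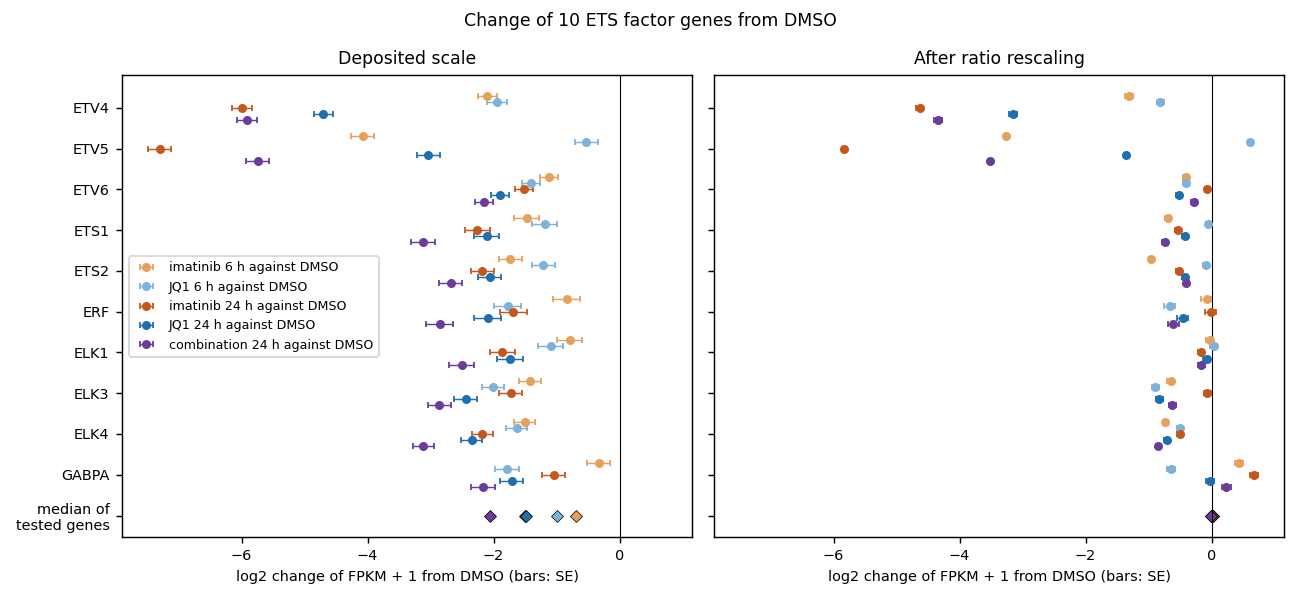
Log2 change of FPKM + 1 of each ETS gene against DMSO in the 5 treated groups (points, bars are SE), on the deposited scale (left) and after rescaling (right), with the median of all tested genes as diamonds in the bottom row. On the left ETV5 reaches -7.30 with imatinib 24 h and stands at -0.53 with JQ1 6 h, and on the right ETV4 and ETV5 are the genes of the 10 with any change below -1.

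The drugs were also compared with each other, which avoids the DMSO libraries. At 6 h ETV5 was 12.4-fold higher with JQ1 than with imatinib (log2 difference 3.55 ± 0.18, adjusted p = 2.04e-12), and it was the 1 gene of the 10 that rose, where 1.95% of tested genes did. GABPA was the 1 gene that fell, 2.77-fold lower with JQ1 (-1.45 ± 0.19, adjusted p = 1.42e-06), where 9.36% of tested genes fell, and both calls held after rescaling at 3.87 and -1.08, where 3.43% of tested genes rose and 3.3% fell. For ERF the difference was -0.94 ± 0.21, just short of a call. At 24 h ETV5 was 52.6-fold higher (4.26 ± 0.18, adjusted p = 3.05e-13) and ETV4 10.3-fold higher with JQ1 than with imatinib (1.29 ± 0.16, adjusted p = 7.96e-07), where 3.59% of tested genes rose, 0 of the 10 fell and 4.88% of tested genes did. Rescaled, the same 2 genes rose (4.48 and 1.49) where 3.57% did, and 0 fell where 6.09% did. The ETV4 ratio again divides by values near the floor, and the ETV5 ratio at 24 h divides by values below 1 FPKM. For ETS1, ETS2, ELK1 and ELK4 at 24 h the libraries of the single drugs overlapped, with differences between -0.17 and 0.15.

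Adding JQ1 to imatinib went with a higher level of ETV5 and lower levels of several other ETS genes. ETV5 was 6.63-fold higher in the combination than with imatinib alone at 24 h, where it lay below 1 FPKM. The log2 difference was 1.55 ± 0.18 (adjusted p = 3.09e-07), and rescaled it was 2.32. ETV5 was the 1 gene of the 10 that rose, where 0.423% of tested genes did. ERF (-1.17 ± 0.21), ELK3 (-1.13 ± 0.18) and GABPA (-1.12 ± 0.19) fell, 3 of 10 where 14.5% of tested genes fell, and ETV4 differed by 0.08 ± 0.16 with overlapping libraries. All 3 falls were lost without replicate 1 of the combination, at -0.99, -0.97 and -0.91, and were no calls when rescaled. Rescaled, 1 of 10 rose, ETV5, where 2.37% of tested genes did, and 0 fell where 5.58% did. With imatinib added to JQ1, ETV5 was 7.94-fold lower (-2.71 ± 0.18, adjusted p = 1.04e-09), ETV4 changed by -1.21 ± 0.16 (adjusted p = 8.06e-06), to values near the floor of the table, and ETS1 fell by 1.01 ± 0.19. These were 3 of 10 where 7.35% of tested genes fell, and 0 of 10 rose where 0.047% did. Rescaled, ETV5 (-2.16) and ETV4 (-1.19) fell where 0.814% of tested genes did, and 0 rose where 0.227% did. The ETS1 call was lost without replicate 1 or 3 of the combination (-0.80 and -0.98) or without replicate 2 or 3 of JQ1 24 h (-0.99 and -0.94), and without replicate 2 of the combination 5 of the 10 fell in place of 3.

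Between 6 h and 24 h of a drug, ETV4 and ETV5 fell further, and most of the other ETS genes were not called. DMSO was not measured at each time, so longer drug exposure and time in culture cannot be told apart here. With imatinib ETV4 fell by a further 3.90 ± 0.16 and ETV5 by 3.22 ± 0.18, and ELK1 fell by 1.07 ± 0.20, 3 of 10 where 33.4% of tested genes fell. 0 of the 10 rose, where 0.501% did. With JQ1 ETV4 fell by 2.76 ± 0.16 and ETV5 by 2.51 ± 0.18, 2 of 10 where 14.2% of tested genes fell, and 0 rose where 0.509% did. Rescaled, the ETV4 and ETV5 falls remained calls under both drugs (-3.32 and -2.56 with imatinib, -2.34 and -1.96 with JQ1) and ELK1 was no call at -0.14. In the rescaled fit 4.38% of tested genes fell and 3.98% rose with imatinib, 3.45% fell and 2.66% rose with JQ1, and 0 of the 10 rose with either. For GABPA the JQ1 times differed by 0.07 ± 0.19 on the deposited scale (95% interval -0.31 to 0.46) and by 0.62 when rescaled, neither a call. Its ratio to ELK1 within a library was 1.34 ± 0.0288 at 6 h of JQ1 and 2.25 ± 0.186 at 24 h, without overlap.

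The interaction compares the combination with the sum of the single-drug changes at 24 h, and a positive value means that the combination fell by less than that sum. It was 4.79 ± 0.22 for ETV4 (adjusted p = 1.01e-12) and 4.59 ± 0.26 for ETV5 (adjusted p = 8.35e-12), and both remained calls when rescaled, at 3.45 and 3.67. ETV4 has little room below its level with imatinib alone, which is near the floor. On log2(FPKM + 1) no value lies below 0. The single-drug changes (imatinib, JQ1) were -5.99 and -4.70 for ETV4 and -7.30 and -3.04 for ETV5. For each gene their sum exceeds the largest fall possible from its DMSO level. For ETV6 (-1.52 and -1.90) the sum also exceeds it, by a small margin. Part of each positive value was therefore fixed beforehand, and its p does not measure how the drugs combine. In all 8 of the 10 genes had a positive call, where 46.8% of tested genes did, and 0 had a negative one, where 0.932% did. ERF (0.92 ± 0.30) and GABPA (0.60 ± 0.26) were the exceptions, and for ELK1 the call was lost without replicate 3 of DMSO (0.95), the unnumbered JQ1 24 h library (0.99) or replicate 2 of the combination (0.83). Rescaled, none of the other 8 genes was called, where 4.88% of tested genes had a positive and 5.83% a negative call. For ETV1 the interaction was -0.08 ± 0.25 and, rescaled, -1.10. ETV1 stayed between 13.0 and 71.0 FPKM in the 24 h drug groups, so no such bound applied to it. Its contrast with ETV4 and ETV5 is thus in part one of room to fall.

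A composition that is free of scale was taken as each gene's share of the summed FPKM of 28 ETS genes in a library. The sum itself was 1108 FPKM in DMSO and 132 FPKM in the combination. Shares add up to a whole, so a large loss of any gene raises the shares of the rest. GABPA, ETV1 and ETV5 lay below DMSO in mean FPKM also where their shares were higher. ETV5 held 22.2% ± 0.230 of the sum in DMSO, 2.93% with imatinib 6 h and 0.198% with imatinib 24 h. It held 35.8% with JQ1 6 h, 12.3% with JQ1 24 h and 2.74% with both. GABPA held 14.4% ± 0.411 in DMSO, 27.1% and 27.2% with imatinib at 6 h and 24 h, 9.56% with JQ1 6 h, 20.2% with JQ1 24 h and 26.6% with both. ETV4 held 6.82% in DMSO, 3.62% with imatinib 6 h, 3.99% with JQ1 6 h and 0.0673% with imatinib 24 h. ETV1 held 9.10% in DMSO and 23.5% with imatinib 24 h. The shares of ETV4, ETV5, ETS1 and GABPA in each drug group were compared with DMSO in 20 tests, and the libraries did not overlap except for ETS1 with JQ1 6 h. With 3 libraries a group, 0.1 is the smallest p that the exact two-sided permutation test allows, and that was its p (0.105 adjusted over the 20 tests) where libraries did not overlap, with 0.2 for that exception.

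**Figure D4:**
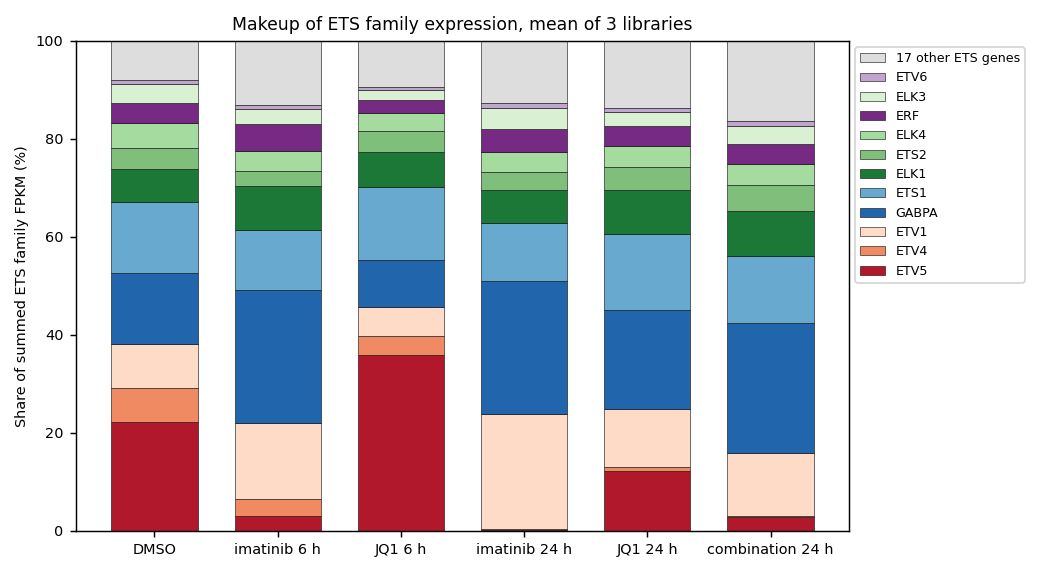
Share (%) of the summed FPKM of 28 ETS genes held by each gene, stacked, as the mean of 3 libraries in each group. ETV5 takes 22.2% in DMSO, 35.8% with JQ1 6 h and 0.198% with imatinib 24 h, where GABPA holds 27.2%.

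The genes around the ETS factors were described by lists. In the order imatinib 6 h, JQ1 6 h, imatinib 24 h, JQ1 24 h and combination, the share of all tested genes that fell was 20%, 49.8%, 72.1%, 75.3% and 86%, and after rescaling 2.08%, 2.57%, 8.72%, 6.47% and 10.1%. Each list is counted in that order and is to be read against those shares. Of 15 tested outputs of ERK signalling, 13, 11, 14, 14 and 15 fell, and 8, 1, 6, 6 and 8 did so after rescaling. DUSP6, a cytoplasmic phosphatase of ERK, fell by 5.89 with imatinib 6 h and fell by 6.88 with imatinib 24 h and stood at -0.86 with JQ1 6 h. SPRY4, a feedback inhibitor of receptor signalling, fell by 5.13 with imatinib 6 h and by 1.99 with JQ1 6 h. Its rescaled changes were -4.26, a call, and -0.85, no call. SPRY2, of the same family, fell by 3.76 and 1.22. DUSP5, a nuclear phosphatase of ERK, fell by 3.28 with imatinib 6 h and stood at -0.75 with JQ1 6 h. At 6 h of imatinib and of JQ1, ETV5 stood at -4.08 and -0.53 and ETV4 at -2.10 and -1.94 beside these.

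Of 9 tested targets of SRF and the ternary complex factors, 8 fell with imatinib 6 h, 2 with JQ1 6 h, 9 with imatinib 24 h, 8 with JQ1 24 h and 9 with the combination, where 20%, 49.8%, 72.1%, 75.3% and 86% of all tested genes fell. After rescaling 3, 0, 3, 0 and 0 fell, where 2.08%, 2.57%, 8.72%, 6.47% and 10.1% of all tested genes did. EGR1, an immediate early transcription factor, averaged 25.7 FPKM in DMSO, 0.470 with imatinib 6 h and 24.9 with JQ1 6 h, so its change was -4.17 with imatinib and -0.04 with JQ1. With JQ1 6 h and rescaling, EGR1 (1.04), CYR61 (1.12), a secreted matrix protein, and FOS (1.16), a subunit of AP-1, rose. IER2, another immediate early gene, fell by 2.17 with imatinib 6 h and by 2.95 with imatinib 24 h. JUNB, an AP-1 subunit, fell by 1.79 with imatinib 24 h.

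Regulators of the PEA3 proteins and genes numbered 9, all of them tested, and 3, 6, 7, 7 and 8 fell in the same order, where 20%, 49.8%, 72.1%, 75.3% and 86% of all tested genes did. After rescaling 2, 1, 1, 1 and 1 fell. TRIB2, a pseudokinase that links the COP1 ubiquitin ligase to its substrates, had the largest falls, of 2.90, 2.13, 3.48, 3.54 and 4.47, and it fell after rescaling in all 5 comparisons (by 1.02 with JQ1 6 h). TRIB1, its relative, fell by 1.84 with imatinib 6 h and stood at 0.07 with JQ1 6 h, which was a rise of 1.15 when rescaled. The COP1 ligase itself (listed as RFWD2) and its partners CUL4A, DDB1 and DET1 changed by -1.77, -1.94, -1.88 and -0.70 with imatinib 24 h, the last no call, and by -0.06, -0.23, -0.15 and 0.69 when rescaled. CIC, which represses the PEA3 genes until ERK signalling relieves it, averaged 25.8 FPKM in DMSO and 9.51 with imatinib 24 h (-1.33, rescaled 0.30), and its cofactor ATXN1L changed by -1.47 (rescaled 0.15). ATXN1, the related cofactor, was at 0.12 and rose by 1.25 when rescaled.

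Of 9 tested partners of ETS factors, 2, 5, 6, 5 and 9 fell, where 20%, 49.8%, 72.1%, 75.3% and 86% of all tested genes did, and 0, 0, 1, 1 and 1 fell after rescaling. GABPB1, the subunit that gives GABPA its activation domain, averaged 40.4 FPKM in DMSO, 15.7 with imatinib 6 h and 4.17 with imatinib 24 h, falls of 1.29 and 2.98. Its rescaled fall at 24 h of imatinib was 1.36, whereas GABPA itself was at 0.68 there. GABPB2, the related subunit, was at -0.63. SRF fell by 1.36 with imatinib 6 h and by 1.69 at 24 h. Its coactivators MKL1 and MKL2 fell by 1.05 and 1.37 at 24 h, and the corepressor components NCOR1 and HDAC3 by 1.48 and 1.40. Rescaled, none of these was called as a fall. SIN3A, a corepressor scaffold, was no call with imatinib 24 h at -0.58 and rose by 1.03 when rescaled. The cascade that ends in ERK had 13 tested genes, of which 4, 8, 13, 13 and 13 fell beside the same shares of all tested genes, and 0, 0, 1, 0 and 1 after rescaling. With imatinib 24 h the ribosomal S6 kinases RPS6KA1 (-2.70) and RPS6KA3 (-2.56) and the RAS genes HRAS (-2.50) and NRAS (-2.19) fell most among them.

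The remaining ETS genes were mostly silent or low. Of 18 others, ETV1 included, 10 did not pass the filter, and of the 8 tested 1, 5, 5, 6 and 7 fell, where 20%, 49.8%, 72.1%, 75.3% and 86% of all tested genes did. After rescaling 0, 0, 0, 1 and 1 fell. FEV, a factor of the FLI1 and ERG group, averaged 10.9 FPKM in DMSO, 1.56 with imatinib 24 h, 0.470 with JQ1 24 h and 0.228 with both, and it fell in all 5 comparisons (by 1.22, 1.90, 2.20, 3.0 and 3.26). Rescaled, it fell with JQ1 24 h (-1.73) and the combination (-1.87). In both of these groups FEV lay below 1 FPKM, so its changes there rest on low values. ETV3, a repressor, fell by 1.63, ERG by 1.61 and ELF2 by 1.06 with imatinib 24 h, and none of them fell when rescaled. ERG too lay below 1 FPKM with imatinib 24 h. On the deposited scale ELF1 was at -0.86 with imatinib 24 h, no call.

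Genes whose pattern over the 18 libraries was most like that of ETV4 were ATAD3B (Pearson r = 0.998), TRPA1 (0.996), VPS53 (0.991) and DNAJA3 (0.991), after subtracting each library's median. For ETV5 they were C3orf52 (0.984), FKBP5 (0.983), LRP8 (0.982) and MGAT4A (0.982). These are descriptions of 18 points that share 6 treatments, and no p is attached to them.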

How the data were processed

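RNA from 18 GIST-T1 libraries was measured by poly(A) RNA-seq with spike-ins added after normalization to cell count, per the labels' protocols. The authors deposited FPKM values per gene and library. The submitters' processing notes name the aligner STAR, Cufflinks and the assembly hg19, and versions are not given in the sources used here. The normalization step is likewise not given in the sources used here. Sequencing depth is unknown, and errors are taken from replicate libraries alone. Of 23713 rows 92 were ERCC spike-ins, and there were 0 columns of samples without a label. A JQ1 24 h column numbered 1 does not match the title numbers of its group and was kept as an unnumbered library.

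The 12771 genes that reached 1 FPKM in 3 or more libraries were fitted with limma 3.58.1 in R 4.3.3 on log2(FPKM + 1), with one mean per group, an intensity trend and 12 residual degrees of freedom. The added 1 understates changes of low genes. Tests were two-sided, in 12 comparisons, with Benjamini-Hochberg adjustment over all tested genes in each. The fit was tested on simulated data with independent noise for each gene and changes set in a small part of the genes. No fall or library shift shared by most genes was simulated, so that test does not cover such cases. Shares within the ETS family and ratios within a library do not depend on library scale.

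The 10 genes and the lists were chosen with earlier results of these data known. Named genes were the 10 members, ETV1, up to 4 called genes of each list by size in imatinib 24 h against DMSO, every PEA3 regulator and ETS partner tested, and the 4 genes most like ETV4 and ETV5. Some genes that this rule selects are not reported here. DUSP6 belongs to the ERK list, and EGR1, CYR61, FOS and TRIB1 in JQ1 6 h and ELF1 were added after their values were seen. Alternatives were a pseudocount of 0.1, no filter, a filter at a mean of 5 FPKM, 3 rescalings of the libraries (by the median ratio, by total, and by total without the 3 rows named MIR1244, which held 18.5% to 42.9% of totals), a replicate block, a fit of the compared groups only, and leaving out each library.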

Additional observations from a re-analysis of the deposited data

Results flagged for a closer look

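The change with both drugs differed from the sum of the changes with each drug at 24 h, by the interaction term of the limma fit, for 8 of the 10 genes. The log2 interaction was 4.79 for ETV4, 4.59 for ETV5, 1.56 for ETS2, 1.41 for ELK4, 1.31 for ELK3, 1.27 for ETV6, 1.25 for ETS1 and 1.09 for ELK1. Over all tested genes the same term was a positive call for 46.8%. After rescaling by the median ratio, ETV4 (3.45) and ETV5 (3.67) were the members still called. ETV4 lay between 0.138 and 0.391 FPKM in the imatinib 24 h and combination libraries, near the floor of the table. For ETV4 and ETV5 the single-drug falls sum to more than the DMSO level allows on log2(FPKM + 1). For ETV6 they do so by a small margin. Part of the positive values of these genes was therefore fixed beforehand. No sample could be singled out within a group, since groups of 3 libraries are too small for that test.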

How the results depend on the processing

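Among 74 gene results, a pseudocount of 0.1, no filter and a fit of the compared groups only kept the direction and the call of all 74, and a filter at a mean of 5 FPKM kept those of the 68 that could be computed, since ETV6 falls below it. The replicate numbers were not taken as pairs: deviations of same-numbered libraries over genes correlated with a median r of -0.03 over 40 pairs, beside 0.01 over 80 pairs of other numbers. That r does not see a level shift shared by all genes, and replicate 3 was the highest for 10, 10, 9, 1, 10 and 0 members in DMSO, imatinib 6 h, JQ1 6 h, imatinib 24 h, JQ1 24 h and the combination. With the replicate block the counts of members called were 7, 9, 10, 10 and 10 against DMSO (imatinib 6 h, JQ1 6 h, imatinib 24 h, JQ1 24 h, combination), and no call changed.

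Rescaling changed most calls. In the order just given the counts became 2, 0, 2, 2 and 2 by median ratio, 2, 2, 3, 2 and 2 by total, and 3, 2, 2, 2 and 2 by total without MIR1244. These counts take rises and falls together. Among the 3 by total with imatinib 24 h, GABPA at 1.12 was a rise. The combination against imatinib had 1 call under each of these in place of 4, the interaction had 2 in place of 8, and JQ1 against imatinib at 24 h had 4 by total in place of 2. Directions turned as follows. By median ratio, GABPA became 0.43 with imatinib 6 h, 0.68 with imatinib 24 h and 0.23 with the combination, and with JQ1 6 h ETV5 became 0.61 and ELK1 0.0297. By total, GABPA became 0.43, 1.12, 0.0721 and 0.36 with imatinib 6 h, imatinib 24 h, JQ1 24 h and the combination. ETV5 became 0.28 with JQ1 6 h, and ELK1 0.02 with JQ1 24 h. With imatinib 24 h ETV6 became 0.31, ERF 0.41, ELK1 0.27 and ELK3 0.36, and ELK1 became 0.31 between the imatinib times. The interactions became -0.0359 for ETV6, -0.19 for ETS1, -0.33 for ELK1, -0.13 for ELK3 and -0.0327 for ELK4. By total without MIR1244, GABPA became 0.40, 0.75 and 0.0868 with imatinib 6 h, imatinib 24 h and the combination, ETV5 0.36 with JQ1 6 h, ERF 0.0519 and ELK3 1e-04 with imatinib 24 h, and the ELK1 interaction -0.0263. The rescalings divide out the shared fall of most genes, which is how they are built. Which scale describes the cells was not tested.

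Leaving out each library in turn moved the count for the combination against imatinib between 1 and 6 (1 without replicate 1 of the combination) and for the combination against JQ1 between 2 and 5 (5 without replicate 2 of the combination). The other counts stayed within 1 of the values given. The unknown depth sets the limit for ETV4 and ETV5 below 1 FPKM.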

Other observations

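Levels of the gene most like ETV4 and of a gene among the 4 most like ETV5, the latter chosen after its values were seen, were as follows. ATAD3B, a mitochondrial membrane ATPase, read 25.4 to 40.1 FPKM in DMSO and 1.77 to 1.85 FPKM with imatinib 24 h. FKBP5, a co-chaperone of steroid receptors, read 76.8 to 119 FPKM in DMSO, 54.1 to 59.3 FPKM with JQ1 6 h and 29.3 to 35.8 FPKM with imatinib 6 h.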
